A study of Mus musculus with 5 samples.

Results

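The genes described here are the enzymes that make cholesterol and fatty acids and the proteins that control their transcription, followed as 1 set in mouse blood cells. A list of 33 gene symbols defined the set by pathway, with no measured value in the rule. Of these, 32 were matched by symbol among the 38166 features of the progenitor tables and the 34315 features of the granulocyte tables, and Hmgcs1 was not analysed here. In the progenitors 30 of the 32 reached a mean of 5 FPKM (fragments per kilobase of transcript, scaled to sequencing depth), a floor that 9153 features passed, and Me1 and Hsd17b7 lay below it.

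Cholesterol and fatty acids are built from the same cytosolic acetyl-CoA, the one through mevalonate, squalene and lanosterol, the other through malonyl-CoA, fatty acid synthase, elongases and desaturases. Transcription of most of these enzymes is driven by sterol regulatory element binding proteins (SREBPs), which Scap escorts out of the endoplasmic reticulum when sterols are low and which Insig proteins hold back when sterols are high. Dividing cells need the products for new membranes, whereas mature neutrophils no longer divide and rely mainly on glycolysis and the pentose phosphate route.

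RNA sequencing of polyA-selected RNA was analysed in 5 libraries from C57BL/6 mice. The granulocyte group, Gr1+ bone marrow cells of animals aged 12 months, was 1 biological replicate sequenced in 2 technical replicates, which were averaged (n = 1). The LncHSC-1 knockdown, LncHSC-2 knockdown and knockdown control groups had 1 library each, made from bone marrow KSL cells (c-Kit+Sca-1+Lin-GFP+), which hold blood stem and early progenitor cells. LncHSC-1 and LncHSC-2 are long non-coding RNAs. The Sca-1+ starting cells came from mice given 5-fluorouracil (5-FU), which kills dividing blood cells, and carried a retrovirus through 2 days of culture with L-glutamine at 2 mM, mSCF (stem cell factor) at 10 ng/ml and mTPO (thrombopoietin) at 100 ng/ml. All 3 KSL groups, the control included, share the 5-FU, the virus, the culture and the green fluorescent protein gate, and the labels name none of these for the granulocytes. The series design also names B cells, which were not analysed here. With 1 sample per group no difference between conditions could be tested, no p-value is given, and every interval below covers counting error only.

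The granulocyte replicates held 37.9 M and 46.7 M estimated reads, and the LncHSC-1, LncHSC-2 and control KSL libraries 24.1 M, 19.9 M and 21.0 M. All 7 granulocyte markers were at 5 FPKM or more in granulocytes, with a sum of 141364 FPKM, and 4 of the 7 were so in every KSL library. Kit, Ly6a and Cd34, the 3 markers of the KSL sort, were at 5 FPKM or more in every KSL library, and 1 of them in granulocytes. In granulocytes, markers of monocytes, macrophages and dendritic cells summed to 379 FPKM, with 6 of 6 genes at 5 FPKM or more. Erythroid markers summed there to 94.4 FPKM and B cell markers to 2.78 FPKM. No source used here ties LncHSC-1 or LncHSC-2 to a feature of the tables, and how far each was knocked down was not checked. Summed over 6 genes each, markers of B cells stood at 64.5, 39.7 and 38.3 FPKM in LncHSC-1, LncHSC-2 and control KSL cells, with 3, 2 and 2 genes at 5 FPKM or more, and those of monocytes, macrophages and dendritic cells at 245, 150 and 139 FPKM. Both sums were highest in the LncHSC-1 library. Most of the second came from Cd74 (143, 83.0 and 73.7 FPKM) and H2-Aa (51.3, 29.5 and 27.4 FPKM), genes of antigen presentation that B cells also express. The other genes of that list were also highest in LncHSC-1. Mpeg1 was at 24.3, 15.9 and 17.7 FPKM and Ly86 at 10.8, 7.71 and 6.42 FPKM. Cd68 was at 13.7, 11.4 and 11.9 FPKM, and Csf1r differed least, at 2.31, 2.09 and 2.24 FPKM. Erythroid markers summed to 7.14, 7.95 and 6.83 FPKM and granulocyte markers to 109, 105 and 118 FPKM in the same 3 libraries, and neither was highest in LncHSC-1. Of 4 adipocyte markers, Adipoq and Plin1 were at or near 0 in all 5 libraries, Lpl was at 1.81 FPKM in granulocytes and at 5.27, 4.40 and 5.08 FPKM in LncHSC-1, LncHSC-2 and control KSL cells, and Fabp4 was at 1.41, 2.19 and 1.40 FPKM in the KSL libraries.

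The route from acetyl-CoA to cholesterol and to long unsaturated fatty acids was detected at every step followed here in the KSL cells, and unevenly in the granulocytes. The 32 genes together amounted to 175 FPKM in granulocytes and to 977, 916 and 990 FPKM in LncHSC-1, LncHSC-2 and control KSL cells. The median gene of the set stood at 2.68 FPKM in granulocytes and at 23.2, 23.3 and 24.5 FPKM in the 3 KSL libraries. In bulk samples, fewer cells of a type and less RNA per cell cannot be told apart, and here cell type and experiment cannot be told apart either. The granulocyte and KSL tables were normalized separately, so no fold change is given between them.

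Of the genes that supply acetyl-CoA, Acly was low in the LncHSC-2 library and Acss2 was not. Acly (ATP citrate lyase, which cuts cytosolic citrate into acetyl-CoA; mm9 chromosome 11, 100337666 to 100389314, minus strand) was at 75.5 FPKM in LncHSC-1 cells and at 37.8 FPKM in LncHSC-2 cells, against 77.7 FPKM in control cells. These levels rest on 9491, 3851 and 8377 estimated reads. The LncHSC-2 library alone was low, with a log2 ratio of -1.02 against control on the log2(FPKM + 1) scale used throughout (95% counting interval of the reads -1.10 to -0.99), and the LncHSC-1 library was at -0.04 with an interval that held 0. Acss2, which makes acetyl-CoA from acetate instead, stood at 9.36 and 9.42 FPKM in LncHSC-1 and LncHSC-2 cells, against 8.89 FPKM in control cells. The ratio of Acly to Acss2 in FPKM was accordingly 8.07, 4.01 and 8.74 in the 3 libraries.

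In granulocytes Acly was at 45.2 and 44.7 FPKM in the 2 replicates, a higher level than any other gene of the set there, and Acss2 was at 7.50 and 7.76 FPKM. Me1, the malic enzyme that yields NADPH for fatty acid synthesis, was at 0.0112 and 0.0168 FPKM in granulocytes, from a few reads, and at 1.95, 1.35 and 1.67 FPKM in LncHSC-1, LncHSC-2 and control KSL cells. It was low in all 5 libraries.

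The promoters of Acly and Acss2, the pair that parted in the LncHSC-2 library, are shown with those of Fasn and Sc5d, 2 genes that differ in how they stand in granulocytes. Each runs from 250 bases before to 50 after a RefSeq transcription start in build GRCm38.p6, which is not the build of the expression files, and is printed along the gene's own strand. Capitals mark matches on either strand to CCAAT (the NF-Y box), GGGCGG (the Sp1 box) and CACGTG (an E-box).
Acly promoter, chr11:100527951-100528250, minus strand: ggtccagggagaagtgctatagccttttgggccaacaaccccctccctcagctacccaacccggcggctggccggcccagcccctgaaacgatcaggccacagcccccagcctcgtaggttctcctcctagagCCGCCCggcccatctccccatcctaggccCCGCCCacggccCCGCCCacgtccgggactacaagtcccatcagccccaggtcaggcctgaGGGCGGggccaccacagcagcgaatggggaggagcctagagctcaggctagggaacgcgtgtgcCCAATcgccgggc
Acss2 promoter, chr2:155517793-155518092, plus strand: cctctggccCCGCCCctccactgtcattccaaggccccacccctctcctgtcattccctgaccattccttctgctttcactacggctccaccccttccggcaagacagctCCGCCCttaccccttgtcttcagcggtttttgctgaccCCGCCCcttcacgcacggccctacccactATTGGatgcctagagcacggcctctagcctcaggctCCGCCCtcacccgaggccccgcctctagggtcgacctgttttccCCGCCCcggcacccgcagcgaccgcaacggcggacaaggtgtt
Fasn promoter, chr11:120824498-120824797, minus strand: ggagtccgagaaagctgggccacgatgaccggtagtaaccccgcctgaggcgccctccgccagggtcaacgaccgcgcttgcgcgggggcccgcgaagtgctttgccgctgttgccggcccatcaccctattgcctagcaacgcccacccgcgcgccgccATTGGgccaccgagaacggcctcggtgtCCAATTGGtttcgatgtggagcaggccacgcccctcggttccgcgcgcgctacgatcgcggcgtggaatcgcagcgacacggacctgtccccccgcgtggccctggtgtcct
Sc5d promoter, chr9:42264251-42264550, minus strand: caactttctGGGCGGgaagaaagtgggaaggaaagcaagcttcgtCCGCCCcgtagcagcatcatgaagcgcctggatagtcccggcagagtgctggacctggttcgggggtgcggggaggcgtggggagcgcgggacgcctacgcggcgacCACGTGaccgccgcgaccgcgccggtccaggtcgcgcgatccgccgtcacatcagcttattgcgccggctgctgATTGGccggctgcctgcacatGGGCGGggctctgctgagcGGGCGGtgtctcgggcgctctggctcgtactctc
In the Fasn promoter the capitals CCAATTGG are a CCAAT on each strand that overlap. The Acly promoter held 4 matches to GGGCGG and 1 to CCAAT, and the Acss2 promoter held 5 and 1. The Fasn promoter held 3 matches to CCAAT and none to GGGCGG, and the Sc5d promoter held 1 CCAAT, 4 GGGCGG and 1 CACGTG. A further motif, TCACNCCAC (the core of a sterol regulatory element), matched none of these windows.

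RefSeq promoters were listed for 25 of the genes, 34 starts in all, and set beside all 32851 listed promoters of that length. CCAAT was present in 21 of the 34 (61.8%, against 37.4% of all promoters), GGGCGG in 24 (70.6%, against 35.7%) and CACGTG in 7 (20.6%, against 7.15%). TCACNCCAC was present in 0 of 34, against 1.24% of all, and with so rare a motif a count of 0 in 34 is near that share. Among the genes with no listed promoter were Scd1, Scd2, Fads1, Fdps, Fdft1, Sqle and Stard4. The median GC content of the set's promoters was 61.8%, against 52.7% of all, and the part of base composition in these shares was not tested. A match describes these letters in this window only, and several starts of 1 gene may share sequence.

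The committed enzymes of fatty acid synthesis were under 1 FPKM in granulocytes and alike in the 3 KSL libraries. Acaca (acetyl-CoA carboxylase, which makes malonyl-CoA) was at 0.789 and 0.731 FPKM in granulocytes and at 7.38, 6.81 and 7.71 FPKM in LncHSC-1, LncHSC-2 and control KSL cells. Fasn (fatty acid synthase) was at 0.861 and 0.819 FPKM in granulocytes and at 43.4, 39.95 and 42.2 FPKM in the KSL libraries in the same order. Neither gene was as far as 1.2-fold from control in either knockdown. The ratio of Acly to Fasn in FPKM was 53.6 in granulocytes and 1.74, 0.946 and 1.84 in LncHSC-1, LncHSC-2 and control KSL cells.

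Among the desaturases and elongases, Scd1 was higher in the LncHSC-1 library, by more than its neighbour Scd2. Scd1 and Scd2 encode stearoyl-CoA desaturases, which turn saturated into monounsaturated fatty acids. Scd1 (mm9 chromosome 19, 44468940 to 44482199) was at 7.22 and 4.42 FPKM in LncHSC-1 and LncHSC-2 cells, against 4.27 FPKM in control cells, from 997, 495 and 506 estimated reads. Its log2 ratio was 0.64 in LncHSC-1 (interval 0.60 to 0.92, computed on reads without the pseudocount) and 0.04 in LncHSC-2 (-0.13 to 0.23). Scd2, much the more abundant of the pair, was at 95.3 and 87.8 FPKM in LncHSC-1 and LncHSC-2 cells, against 89.0 FPKM in control cells, log2 ratios of 0.10 (0.06 to 0.13) and -0.02. With the reads of an unnamed feature at its locus added, the Scd2 log2 ratios were 0.08 in LncHSC-1 and -0.04 in LncHSC-2. The ratio of Scd2 to Scd1 was 13.2 in LncHSC-1 cells, against 19.9 and 20.9 in LncHSC-2 and control cells. The LncHSC-1 library is the one with the higher values of B cell and of monocyte, macrophage and dendritic cell markers given above. The part of these markers' cells in the Scd1 difference was not tested.

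In granulocytes the other genes of this step were low, apart from Elovl5. Fads2, the delta-6 desaturase, was at 0.174 FPKM in both granulocyte replicates (12.2 and 15.0 estimated reads) and at 63.6, 64.3 and 64.5 FPKM in LncHSC-1, LncHSC-2 and control KSL cells. Fads1, the delta-5 desaturase that works with it, was at 0.621 and 0.557 FPKM in granulocytes and at 42.3, 43.6 and 46.1 FPKM in the KSL libraries. Scd2 was at 2.27 and 2.26 FPKM in granulocytes, and Scd1 at 0.157 and 0.0828 FPKM from 35.6 and 23.1 estimated reads, so their ratio there (14.4 and 27.3 by replicate) is loosely set.

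The elongases of the set, Elovl5 and Elovl6, as counted under their own names, were lower in both knockdown libraries than in the control library they share. This was not general to elongases. Elovl1, from the other lists, was at 61.7 and 65.4 FPKM in LncHSC-1 and LncHSC-2 cells, against 60.6 FPKM in control cells. Elovl5, which elongates polyunsaturated fatty acids, was at 6.89 and 6.97 FPKM in granulocytes and at 40.6 and 39.4 FPKM in LncHSC-1 and LncHSC-2 cells, against 46.4 FPKM in control cells. Elovl6, which elongates saturated and monounsaturated fatty acids, was at 0.303 and 0.367 FPKM in granulocytes and at 16.8 FPKM in both knockdowns, against 19.3 FPKM in control. An unnamed feature over the Elovl6 locus held 204 and 239 estimated reads in LncHSC-1 and LncHSC-2 cells and 0 in control cells. With those reads added the Elovl6 log2 ratios came to -0.11 (-0.18 to -0.03) and -0.06 (-0.14 to 0.02) instead of -0.19 in each. The LncHSC-2 interval then held 0.

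**Figure D1:**
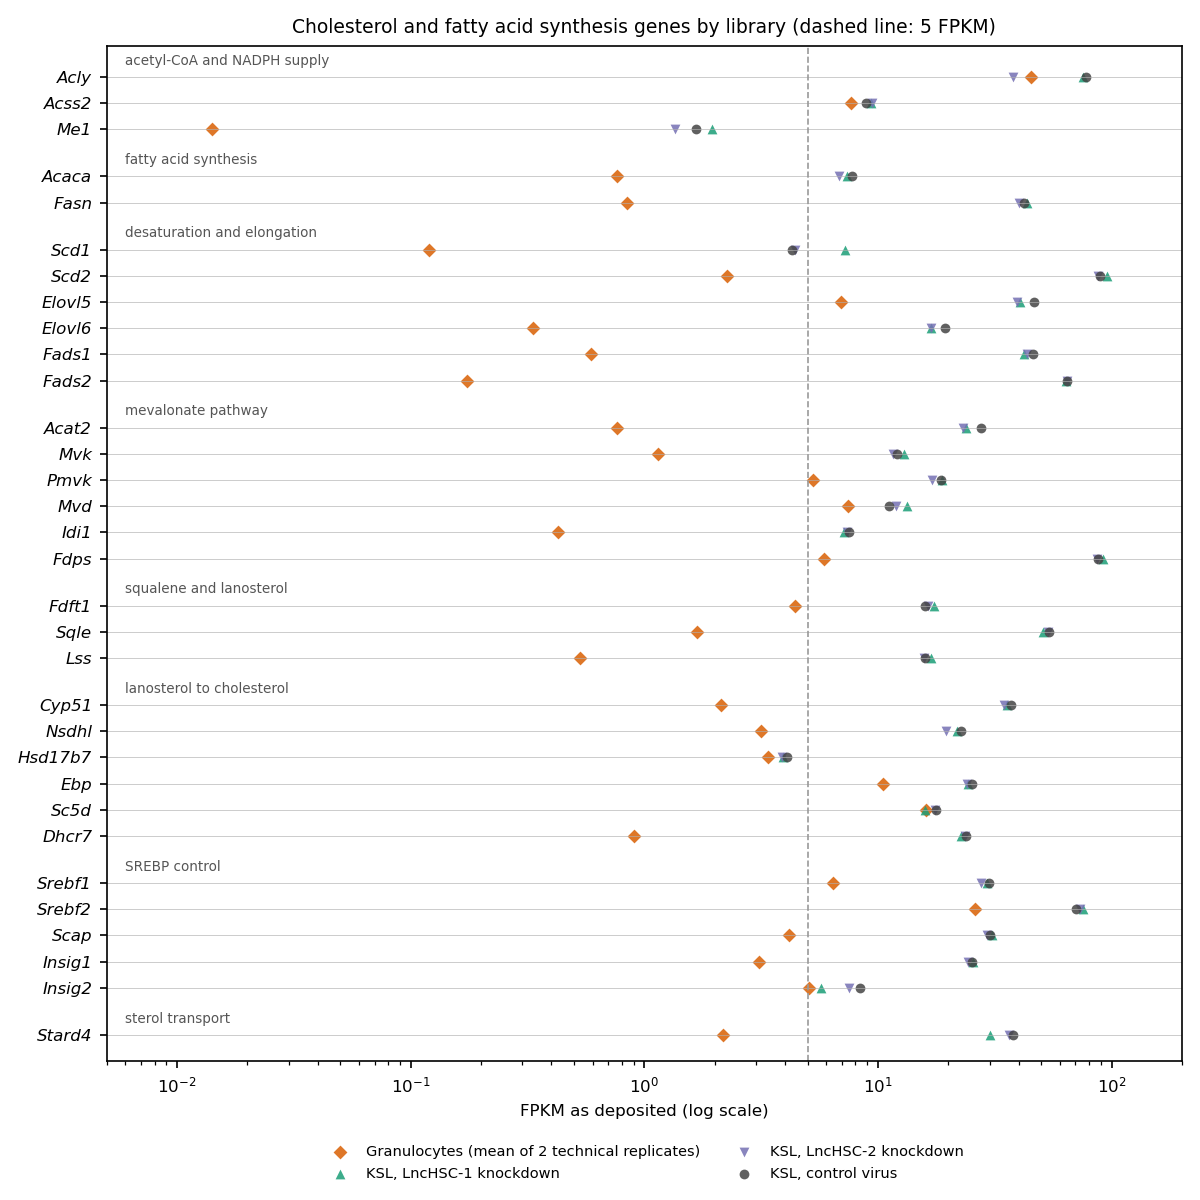
FPKM of the 32 genes on a log axis, 1 row per gene grouped by role, with diamonds for granulocytes (mean of 2 technical replicates), triangles for LncHSC-1 and LncHSC-2 and circles for control KSL cells. The granulocyte diamonds lie to the left of the KSL points for most genes but not for Sc5d, the KSL points of most genes overlap, and Acly in LncHSC-2 at 37.8 FPKM and Scd1 in LncHSC-1 at 7.22 FPKM stand off.

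The mevalonate genes all lay within 1.2-fold of control in both knockdowns and did not stand at 1 level in granulocytes. Fdps (farnesyl diphosphate synthase, which joins the isoprene units) was at 5.85 and 5.90 FPKM in granulocytes and at 91.7, 86.5 and 87.3 FPKM in LncHSC-1, LncHSC-2 and control KSL cells. Mvd (mevalonate diphosphate decarboxylase) was at 7.72 and 7.10 FPKM in granulocytes and at 13.4, 11.9 and 11.1 FPKM in the KSL libraries, with a log2 ratio of 0.24 in LncHSC-1 (0.09 to 0.44). Pmvk (phosphomevalonate kinase) was at 5.25 and 5.29 FPKM in granulocytes and at 18.9, 16.9 and 18.6 FPKM in the KSL libraries. These 3 genes passed 5 FPKM in granulocytes.

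The other genes of that stretch were lower there. Acat2, the cytosolic thiolase at the head of the route, was at 0.600 and 0.919 FPKM in granulocytes. In LncHSC-1 and LncHSC-2 cells it was at 23.7 and 23.1 FPKM, against 27.7 FPKM in control. Its log2 ratios were -0.21 (-0.33 to -0.11) in LncHSC-1 and -0.25 (-0.38 to -0.15) in LncHSC-2. The LncHSC-2 ratio lay under the 5th percentile of all features in that comparison, -0.18. Mvk (mevalonate kinase) was at 1.17 and 1.13 FPKM in granulocytes and at 12.9, 11.6 and 12.0 FPKM in LncHSC-1, LncHSC-2 and control KSL cells. Idi1, the isomerase of the isoprene unit, was at 0.433 and 0.419 FPKM in granulocytes and at 7.12, 7.33 and 7.52 FPKM in the KSL libraries. Mvk, Pmvk and Idi1 all lay between -0.13 and 0.09 of control on the log2 scale in both knockdowns.

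The steps from squalene to lanosterol summed to 6.63 FPKM in granulocytes and to 85.0, 85.4 and 85.8 FPKM in LncHSC-1, LncHSC-2 and control KSL cells, and none of the 3 genes was as far as 1.1-fold from control. Sqle (squalene epoxidase) was at 1.56 and 1.80 FPKM in granulocytes and at 50.7, 53.2 and 54.0 FPKM in the KSL libraries. Lss (lanosterol synthase) was at 0.539 and 0.526 FPKM in granulocytes and at 16.9, 15.7 and 15.9 FPKM in the KSL libraries. Fdft1 (squalene synthase) was at 4.53 and 4.30 FPKM in granulocytes and at 17.4, 16.4 and 15.9 FPKM in the KSL libraries. The Fdft1 locus in the files overlaps Ctsb, a more abundant gene. The estimated reads of the 2 genes were not whole numbers apart. Added together they came to 7561, 5785 and 6401 in LncHSC-1, LncHSC-2 and control cells. The Fdft1 level thus depends on how reads were shared between them and is uncertain. No source used here says whether the counting used strand.

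From lanosterol to cholesterol, neighbouring steps stood far apart in granulocytes. Sc5d, the sterol desaturase just before Dhcr7, was at 16.1 and 16.0 FPKM in the granulocyte replicates and at 15.8, 17.6 and 17.8 FPKM in LncHSC-1, LncHSC-2 and control KSL cells. Dhcr7, the last reductase, was at 0.905 FPKM in each granulocyte replicate and at 22.6, 23.6 and 23.9 FPKM in the KSL libraries. Ranked among the 13875 features of both tables with at least 1 FPKM in some library, Sc5d was at percentile 78.4 in granulocytes and 64.2 in control KSL cells, and Dhcr7 at 26.3 and 72.2.

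The other genes of this stretch lay between these. Cyp51 (lanosterol demethylase) was at 2.00 and 2.27 FPKM in granulocytes and at 35.5, 34.6 and 37.2 FPKM in the KSL libraries. The isomerase Ebp was at 10.2 and 10.8 FPKM in granulocytes and at 24.3, 23.9 and 25.2 FPKM in the KSL libraries. Nsdhl, a sterol dehydrogenase, was at 3.08 and 3.21 FPKM in granulocytes and at 21.9, 19.6 and 22.7 FPKM in the KSL libraries, and its LncHSC-2 level gave a log2 ratio of -0.20 against control. Hsd17b7, the ketoreductase, had about the same low level everywhere, 3.34 and 3.43 FPKM in granulocytes and 3.91, 3.88 and 4.10 FPKM in the KSL libraries.

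The 5 regulators were detected in all 5 libraries, and 3 of them, Srebf2, Srebf1 and Insig2, reached 5 FPKM in granulocytes. Scap and Insig1 lay under it there. Srebf2, the SREBP best known for driving cholesterol genes, was at 26.1 FPKM in each granulocyte replicate and at 75.7, 73.4 and 70.6 FPKM in LncHSC-1, LncHSC-2 and control KSL cells. Srebf1, better known for fatty acid genes, was at 6.40 and 6.44 FPKM in granulocytes and at 29.1, 27.5 and 29.7 FPKM in the KSL libraries. Its locus in the files overlaps Rai1, and since the use of strand is not known, its level is uncertain too. Its estimated reads in the KSL libraries were whole numbers (3561, 2727 and 3116), whereas those of Fdft1 were not (1389.3, 1060.4 and 1088.9). The ratio of Srebf2 to Srebf1 was 4.06 in granulocytes and 2.60, 2.67 and 2.38 in the KSL libraries. Scap, the SREBP escort, was at 4.20 and 4.09 FPKM in granulocytes and at 30.6, 29.3 and 30.3 FPKM in the KSL libraries.

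The balance of the Insig pair was shifted in the LncHSC-1 library and turned round in granulocytes. Insig2, a sterol sensor that retains the SREBP complex, was at 5.02 and 5.15 FPKM in granulocytes and at 5.71 and 7.53 FPKM in LncHSC-1 and LncHSC-2 cells, against 8.36 FPKM in control cells. Its log2 ratio was -0.48 in LncHSC-1 (-0.75 to -0.35, from 371 against 482 estimated reads) and -0.13 in LncHSC-2 (-0.34 to 0.04). Insig1, its paralogue and itself an SREBP target, was at 3.24 and 2.95 FPKM in granulocytes and at 25.6, 24.3 and 25.2 FPKM in LncHSC-1, LncHSC-2 and control KSL cells. The ratio of Insig1 to Insig2 was 0.609 in granulocytes and 4.48, 3.22 and 3.01 in the KSL libraries.

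Stard4, a cytosolic sterol carrier, was, with Insig2, 1 of the 2 genes of the set lower than control by 1.2-fold or more in LncHSC-1. It was at 2.14 and 2.21 FPKM in granulocytes and at 30.1 and 36.2 FPKM in LncHSC-1 and LncHSC-2 cells, against 37.7 FPKM in control, with a log2 ratio of -0.31 (-0.40 to -0.24) in LncHSC-1 and -0.06 (-0.14 to 0.02) in LncHSC-2. An unnamed feature shares its locus, and with those reads added the LncHSC-1 ratio was -0.33. As for Scd1, the part of those markers' cells in the LncHSC-1 values of Insig2 and Stard4 was not tested.

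Read as a set, the genes stayed close to control in the LncHSC-1 library. Of the 30 genes above the floor, 13 were higher and 17 lower, with a median log2 ratio of -0.03, against -0.02 over all 9153 features, of which 56.1% were lower. Scd1 was the 1 gene at least 1.5-fold higher, where 1.47% of all features were, and 0 were as much lower, where 0.754% were. Scd1, at a mean of 5.30 FPKM, passed the floor only through LncHSC-1 (7.22 FPKM, against 4.42 in LncHSC-2 and 4.27 in control). Its place among the 30 genes therefore depends on the library in which it was high. At 1.2-fold in either direction 3 genes passed (Scd1, Insig2 and Stard4), against 8.77% of all features, and at 2-fold none, against 1.06%. Of all features, 111 stood higher than Scd1. The counting interval left out 0 for 15 of the 30 genes, against 39.7% of all features. Within 1.1-fold of control lay 22 genes, 73.3% of the set and 70.8% of all features.

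In the LncHSC-2 library most of the set lay slightly under control and 1 gene far under it. Of the 30 genes, 5 were higher and 25 lower, with a median log2 ratio of -0.05, against 0.00 over all features, of which 47.9% were lower. Acly was the 1 gene at least 1.5-fold lower, where 0.732% of all features were, and 0 were as much higher, where 1.04% were. It was also the 1 gene past 1.2-fold, against 5.77% of all features, and past 2-fold, against 0.951%. Of all 9153 features, 31 stood lower than Acly. The interval left out 0 for 11 genes, against 26.1% of all features. Within 1.1-fold lay 24 of the 30 genes, where 80.2% of all features did, so the lower side was shared by many genes at a small size.

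Set against each other, the LncHSC-1 and LncHSC-2 libraries differed most at Acly and Scd1. Acly was higher in LncHSC-1 by a log2 ratio of 0.98 (0.95 to 1.05) and Scd1 by 0.60 (0.55 to 0.87). These were the 2 of 30 genes at least 1.5-fold higher, where 1.37% of all features were, and 0 were as much lower, where 0.94% were. As given above, Scd1 passed the floor only through its LncHSC-1 level. Insig2, at -0.35 (-0.60 to -0.19), was the third gene past 1.2-fold, against 8.4% of all features, and none passed 2-fold, against 1.15%. The median over the set was 0.05, against -0.03 over all features, and the interval left out 0 for 13 genes, against 36.1% of all features.

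**Figure D2:**
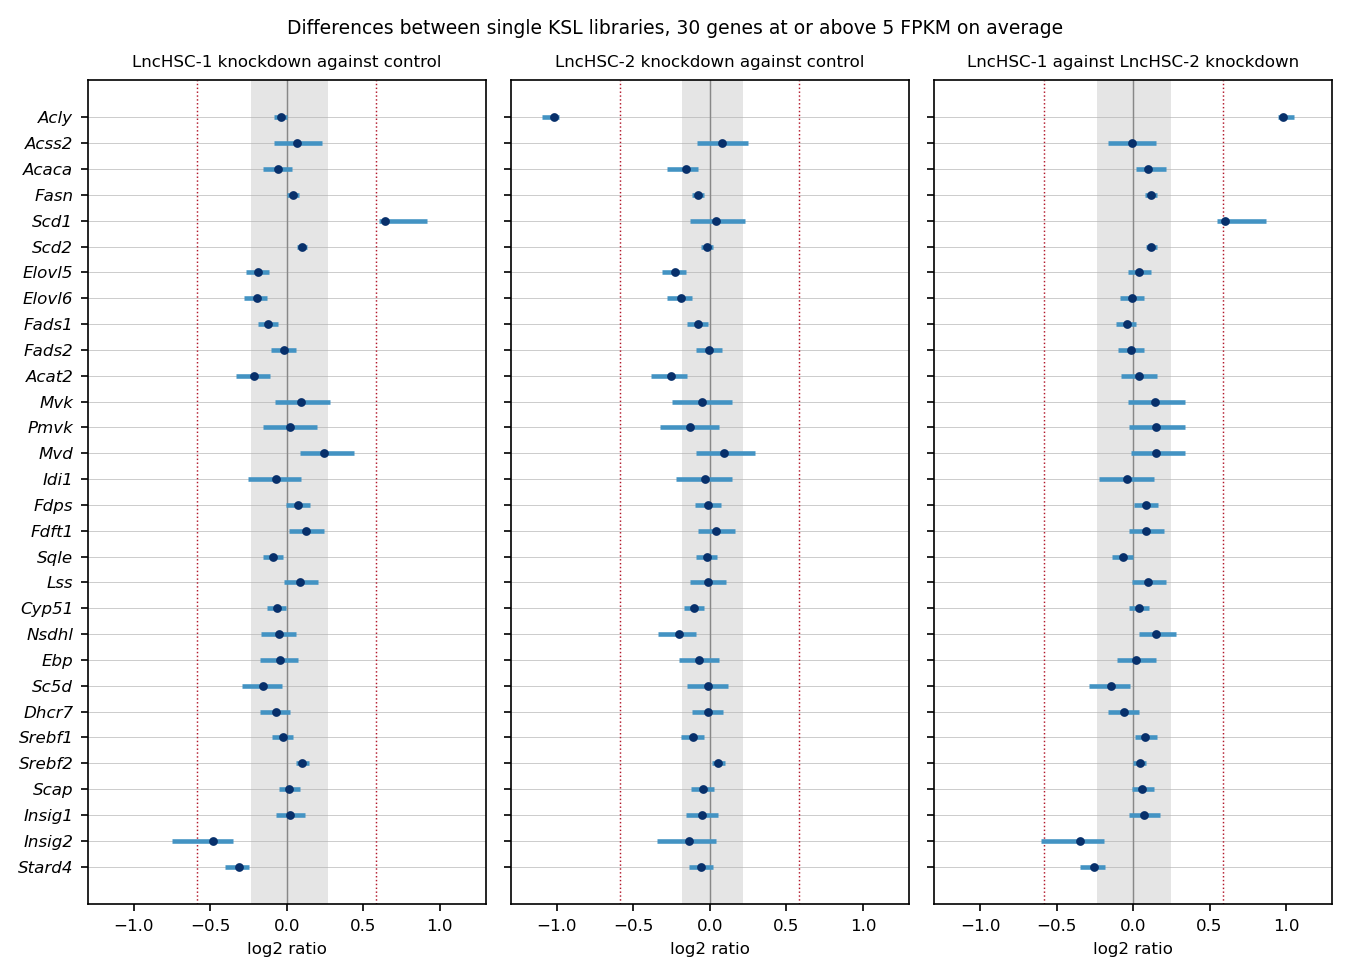
Log2 ratio of FPKM + 1 (points) for the 30 genes above the floor in 3 panels, with 95% counting intervals of the reads as bars, dotted lines at 1.5-fold and a grey band from the 5th to the 95th percentile of all features. Acly in LncHSC-2 at -1.02 and Scd1 in LncHSC-1 at 0.64 lie outside the dotted lines, and no other point of the panels against control does.

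In rank within their own library the genes stood lower in granulocytes than in control KSL cells. The median percentile of the 32 genes was 44.5 in granulocytes and 72.9 in control KSL cells, and 27 of the 32 ranked lower in granulocytes. Among the 29 genes at 5 FPKM or more in control KSL cells, 25 ranked lower in granulocytes, where 63.2% of all such features did. Of these 29, 11 also reached 5 FPKM in granulocytes, where 55.4% of all such features did. With each library rescaled to a common sum, which multiplies the granulocyte and control KSL values by nearly the same factor (2.25 to 2.28), 17 of 31 genes did, where 65.1% of all such features did. The 11 were Acly, Acss2, Elovl5, Pmvk, Mvd, Fdps, Ebp, Sc5d, Srebf1, Srebf2 and Insig2, and another 11 of the 32 genes lay under 1 FPKM.

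The spread among the genes in granulocytes was wide. Fads2 was at percentile 11.4 in granulocytes and 90.5 in control KSL cells, and Fasn at 25.5 and 84.6. Acly had a like rank in both, 91.8 and 92.6, and Srebf2 was at 85.9 and 91.6. The 4 genes of the 29 that ranked higher in granulocytes were Sc5d, Acss2 (64.2 and 46.5), Mvd (63.6 and 52.1) and Insig2 (56.7 and 45.1). By role, fatty acid synthesis summed to 1.60 FPKM in granulocytes and 49.9 in control KSL cells, desaturation and elongation to 10.4 and 270, squalene and lanosterol steps to 6.63 and 85.8, and acetyl-CoA and NADPH supply to 52.6 and 88.3. The 2 technical replicates differed by at most 0.20 on the log2 scale for the genes at 1 FPKM or more, which covers sequencing and not animals.

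**Figure D3:**
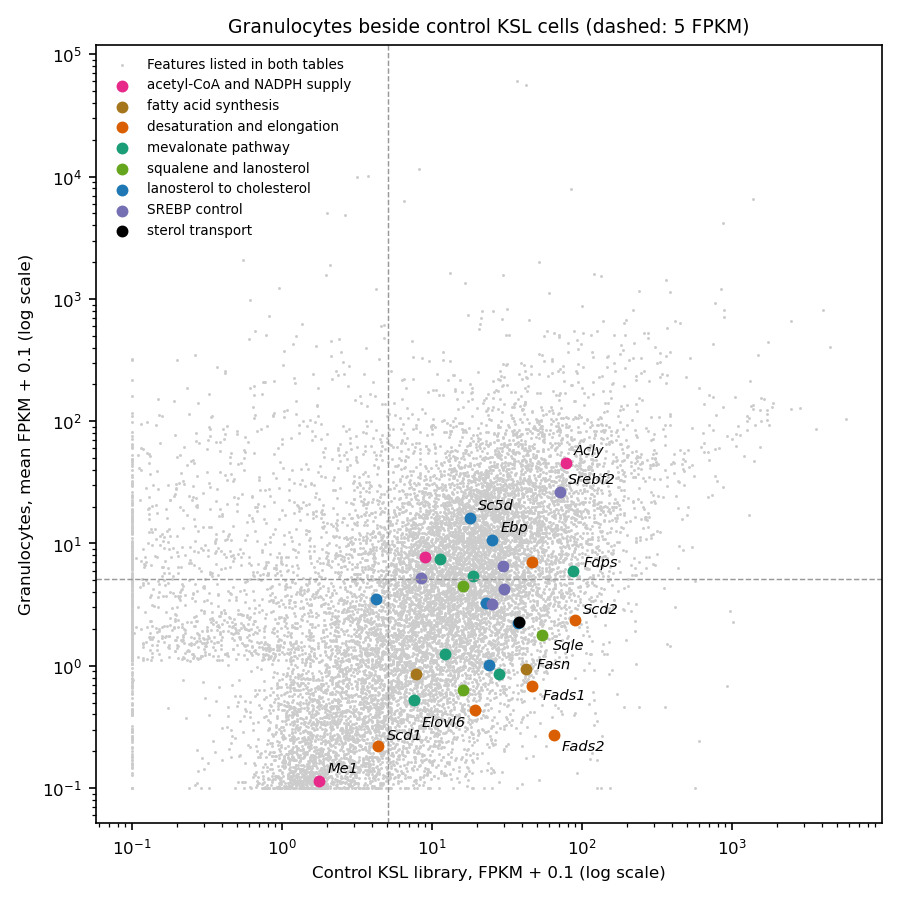
Mean FPKM + 0.1 of each gene in granulocytes (vertical, log scale) against FPKM + 0.1 in the control KSL library (horizontal, log scale), coloured by role, with other features listed in both tables in grey and dashed lines at 5 FPKM. Acly, Srebf2 and Sc5d lie high among the features, and Fads2, Fads1 and Fasn lie at the lower right, under 1 FPKM in granulocytes.

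Other genes of lipid metabolism were followed in 7 lists with 108 genes, of which 89 passed the floor. Of these 89, 0 were 1.5-fold or more from control in either knockdown and either direction, and 0 differed that much between the knockdowns. With 0.732% to 1.47% of all features past that size in each direction against control, and 1.37% and 0.94% between the knockdowns, a count of 0 in 89 is near the background. The furthest from control were Mbtps2, a protease that cleaves SREBPs, at -0.31 in LncHSC-1, Hadhb, a subunit of the mitochondrial trifunctional protein, at -0.30 in LncHSC-1, and Acsl4, an acyl-CoA synthetase for polyunsaturated fatty acids, at -0.40 in LncHSC-2. Ptpla, a dehydratase of the elongation cycle, was at -0.27 in LncHSC-1, and Lpin2, a phosphatidate phosphatase, at -0.26 in LncHSC-2.

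Of the 90 genes of these lists at 5 FPKM or more in control KSL cells, 68 also reached it in granulocytes, where 55.4% of all such features did. By list, 14 of 19 fatty acid oxidation genes and 14 of 24 other fatty acid synthesis genes ranked lower in granulocytes than in control KSL cells. So did 7 of 14 genes of glycerolipid assembly and 4 of 17 of cholesterol uptake, efflux, transport and storage. Of all features at 5 FPKM or more in control KSL cells, 63.2% ranked lower. Except for fatty acid oxidation, these list counts also take in genes under that level, so that share is not matched to them. The genes named next are among the 3 highest of their list in granulocytes and were chosen for that level. Dgat1 and Dgat2, which make triglyceride, were at 152 and 45.4 FPKM in granulocytes and at 6.19 and 0.434 FPKM in control KSL cells. Acsl1, which activates fatty acids, was at 58.3 FPKM in granulocytes and 9.40 in control KSL cells, and Soat1, which esterifies cholesterol for storage, at 26.7 and 8.52. Of the list on NADPH and citrate, the pentose phosphate genes Taldo1 and Pgd stood at 678 and 503 FPKM in granulocytes and at 196 and 70.5 FPKM in control KSL cells. In the list that holds Acsl1, the elongation genes Tecr and Ptplad2 stood higher, at 93.6 and 77.2 FPKM in granulocytes and 117 and 9.21 in control KSL cells. In the list that holds Soat1, Npc2 and Lipa followed at 25.7 and 24.4 FPKM in granulocytes and 53.8 and 18.0 in control KSL cells. Fasn, Acaca, Scd1 and Fads2 were under 1 FPKM in granulocytes, so genes of fatty acid synthesis and elongation stood both high and low there. Of the other cholesterol synthesis genes, 4 of 8 ranked lower in granulocytes, where 63.2% of all features at 5 FPKM or more in control KSL cells did. In granulocytes 2 high in that list were Lbr and Sc4mol. Lbr, a nuclear envelope protein with sterol reductase activity, was at 198 FPKM there against 85.6 in control KSL cells. Sc4mol, a sterol oxidase, was at 25.8 against 64.1.

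**Figure D4:**
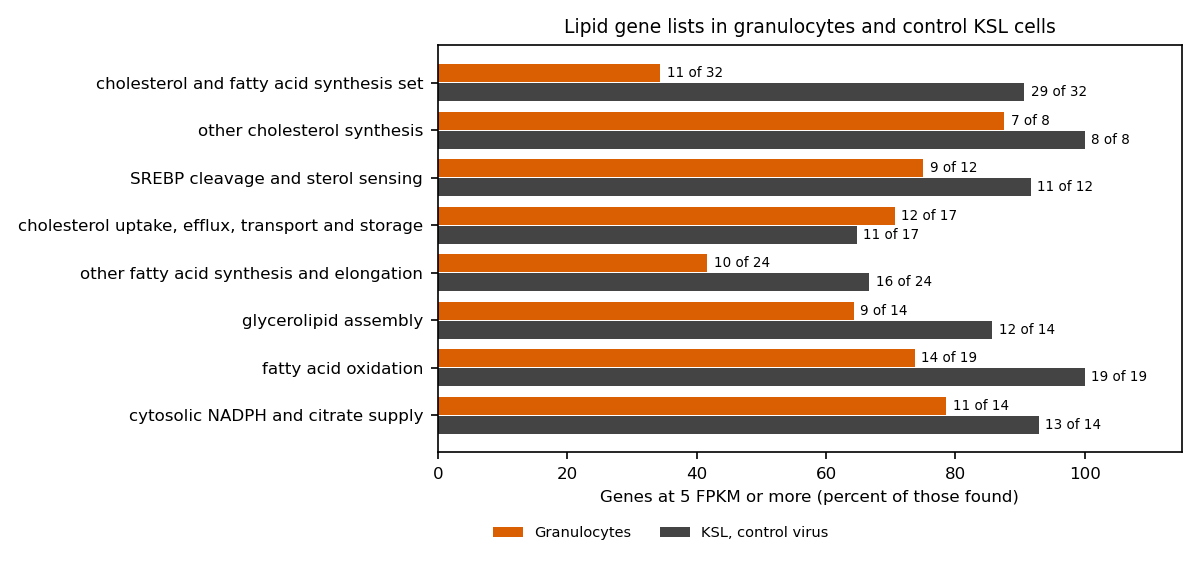
Share of found genes at 5 FPKM or more, in percent, for the described set and the 7 other lists of lipid metabolism, granulocytes beside control KSL cells. The described set has 11 of 32 genes in granulocytes and 29 of 32 in control KSL cells, whereas cholesterol uptake, efflux, transport and storage has 12 and 11 of 17.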

How the data were processed

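Transcripts were measured by RNA sequencing in 5 libraries. The submitters' processing notes name the mouse build mm9 and DESeq, and the sources used here do not give the aligner, counter, strand setting or annotation release. FPKM was used as the authors deposited it, named as FPKM in the file headers. The KSL count columns as deposited are a signal, reads times 1 factor per library: within 0.1 of a read, values of up to 20 reads were whole in 91.9% to 92.2% of cases. Dividing by the value of 1 read (0.924, 1.03 and 1.08 in LncHSC-1, LncHSC-2 and control cells) gave estimated reads. The granulocyte count columns as deposited are a score, scaled reads rounded to whole numbers, and the granulocyte FPKM follows from it with a divisor of 50 M in both replicates.

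Members were matched by symbol, taking the highest of several features; Scd2 is counted with a microRNA in its locus. The described genes and the lists were chosen with earlier results of these data known. Ratios are log2(FPKM + 1), which understates changes of low genes, for features at 5 FPKM or more on average over the KSL libraries. A 1.5-fold difference served as rule of size. Intervals (95%, exact binomial) were computed on estimated reads and carry no pseudocount, and PCR duplicates are not accounted for. All listed genes could be named. Of the other lists, the 3 furthest from control in each knockdown and the 3 highest in granulocytes could be named. Elovl1 was added to these beside the elongases of the set. Some genes of these lists are not reported here. Ratios, intervals and the value of 1 read were tested on simulated data. Promoters are from RefSeq (GRCm38.p6). Other settings tried were the count columns as deposited and centred, a pseudocount of 0.1, floors of 1 FPKM and none, other fold rules, each granulocyte replicate alone and rescaling to a common sum. Python 3.11.15, pandas 2.3.3, numpy 2.4.6, scipy 1.17.1 and matplotlib 3.10.9 were used.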

Additional observations from a re-analysis of the deposited data

Results flagged for a closer look

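An unnamed feature over the Elovl6 locus, outside the set described above, held 204.2 estimated reads in LncHSC-1 cells, 239.5 in LncHSC-2 cells and 0 in control cells. Elovl6 itself held 2867.8, 2335.6 and 2837.0 estimated reads in the same order. Added together they gave 3072.0, 2575.0 and 2837.0, so in the knockdowns the sums are whole numbers where the parts are not. The feature's reads alone therefore do not show a transcript missing from control cells. The cause of the difference was not tested.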

How the results depend on the processing

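The deposited count columns place the median feature of LncHSC-2 at -0.14 against control and LncHSC-1 at 0.12 against LncHSC-2, whereas FPKM places both within 0.03 of 0. In those columns the median of the set was -0.20 in LncHSC-2 against control and 0.20 for LncHSC-1 against LncHSC-2, and 2 genes passed 1.5-fold in LncHSC-1, Insig2 joining Scd1. Centring them gave medians of -0.014 for LncHSC-1 against control and 0.081 for LncHSC-1 against LncHSC-2. With a 2-fold rule 0 genes passed in LncHSC-1 and 0 between the knockdowns, and with a 1.2-fold rule 3 passed in LncHSC-1. Rescaling to a common sum multiplied all libraries by 2.202 to 2.316, so against the fixed 5 FPKM the genes passing came to 17 in granulocytes (median 6.04 FPKM) and 31 in each KSL library, which shows the choice of threshold and no shift between groups. Leaving out either granulocyte replicate left that count at 11 and the median between 2.61 and 2.67 FPKM. No median of the set and no gene past 1.5-fold changed direction under these settings or under a pseudocount of 0.1 or a lower floor. With unnamed overlapping features added, 2 of 12 single-gene ratios moved by more than their counting error; that setting was chosen after seeing the data. No paired analysis was possible because each KSL group has 1 library and the granulocyte replicates pair with none. With 1 library per group, depth sets the width of the intervals, and spread between animals or cultures is not measured.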
